A study of Mus musculus with 6 samples.

Results

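The genes described here encode the collagens, laminins and other proteins of the extracellular matrix, with the enzymes that crosslink them. They were taken as a list of 46 symbols grouped by function, drawn up with earlier results of these arrays known. Of these, 43 had an array probe set that named them alone, out of 18193 genes measured in all, and Fbn1, Efemp2 and Loxl2 were not analysed here. The arrays measured 3 mouse hepatocellular carcinoma lines. M1 and I1 are subclone lines that were selected from the parent line BL185 as migratory subpopulations, and BL185 is that unselected parent. No treatment separated the lines: all were grown in DMEM with 10% serum, and each was measured on 2 arrays. Whether a line's arrays stand for separate cultures is not labelled, and p-values therefore reflect array-to-array spread that may be only technical. Each selected line is 1 line set against a parent population, and an unselected subclone was not analysed here, so selection and subcloning cannot be told apart. The study set out to find which genes changed when these cells were selected for migration.

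The extracellular matrix surrounds cells and carries the contacts through which they move. Fibrillar collagens form cables, with collagen V acting as a minor chain type that starts and sizes the fibrils. Collagen VI forms beaded microfilaments near the cell surface. The basement membrane is a sheet built from laminin and collagen IV networks that nidogens and perlecan connect. Matricellular proteins such as Sparc and tenascin C bind matrix and cells and modify adhesion without forming the scaffold. In liver the fibrillar collagens come mainly from stellate cells and fibroblasts, and carcinoma cells can also transcribe matrix genes.

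All values are log2 RMA signals, where 1 unit is a 2-fold difference, and changes are differences of line means with the standard error (SE) of a limma fit over all 6 arrays. A gene was called where its Benjamini-Hochberg adjusted p over all genes was under 0.05. M1 replicate 1 stood apart: the M1 arrays correlated at r = 0.91 over all probe sets, against 0.994 for the I1 arrays and 0.997 for the BL185 arrays. Array medians were 7.92 to 8.11 in M1, 7.94 in both I1 arrays and 7.87 to 7.91 in BL185, and M1 replicate 1 had the narrowest range of values (SD 1.62, against 1.83 to 1.97 on the others). The SD between arrays of a line had a median over the 43 members of 0.45 in M1, 0.09 in I1 and 0.08 in BL185. The M1 spread enters the pooled error of every comparison, so results are also given without M1 replicate 1. In that setting M1 is 1 array, whose spread is taken to be that of I1 and BL185. The 18S control probe set read 10.68 to 12.50 in M1, 11.27 to 11.51 in I1 and 10.11 to 10.14 in BL185, so a measure of RNA composition moved with the lines. The 3′ minus 5′ difference of the Actb control probe sets, which bears on RNA integrity and labelling, was 1.24 to 1.43 in M1, 1.43 to 1.47 in I1 and 0.88 to 1.08 in BL185.

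In the parent line 28 of the 43 matrix genes lay above the array median on both arrays. On all 6 arrays 26 did, 12 of them among the 17 basement membrane genes, and 5 lay below it on all 6. The median is over all probe sets, while each gene was its brightest probe set, so these counts do not show expression. No detection calls were used, and a value near the array median cannot be told from background. For genes near or below it in BL185, such as Col5a1, Lox and Thbs1, the log2 values below are differences in signal, and no fold is given. A total of 3 genes of the list rose in both selected lines: Col5a1, the alpha 1 chain of collagen V, Col6a2, the alpha 2 chain of collagen VI, and Sparc, a collagen-binding glycoprotein. In M1, 3 of 43 genes were called higher and 0 lower, against 0.275% of all genes higher and 0.605% lower. In I1, 3 were again called higher and 0 lower, against 0.192% higher and 0.319% lower over all genes. Before adjustment, at p under 0.05, 6 were higher and 3 lower in M1, where 3.92% and 11.5% of all genes were, and 10 were higher and 1 lower in I1, where 4.18% and 7.47% of all genes were. These calls rest on all 6 arrays or on fewer M1 arrays: without either I1 array or either BL185 array 0 members were called in any comparison, while the changes of the 3 genes lay between 2.13 and 2.94 in M1 and between 2.10 and 3.35 in I1. The comparisons of M1 and of I1 share the BL185 arrays, so their values are given side by side and do not count as separate evidence.

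**Figure D1:**
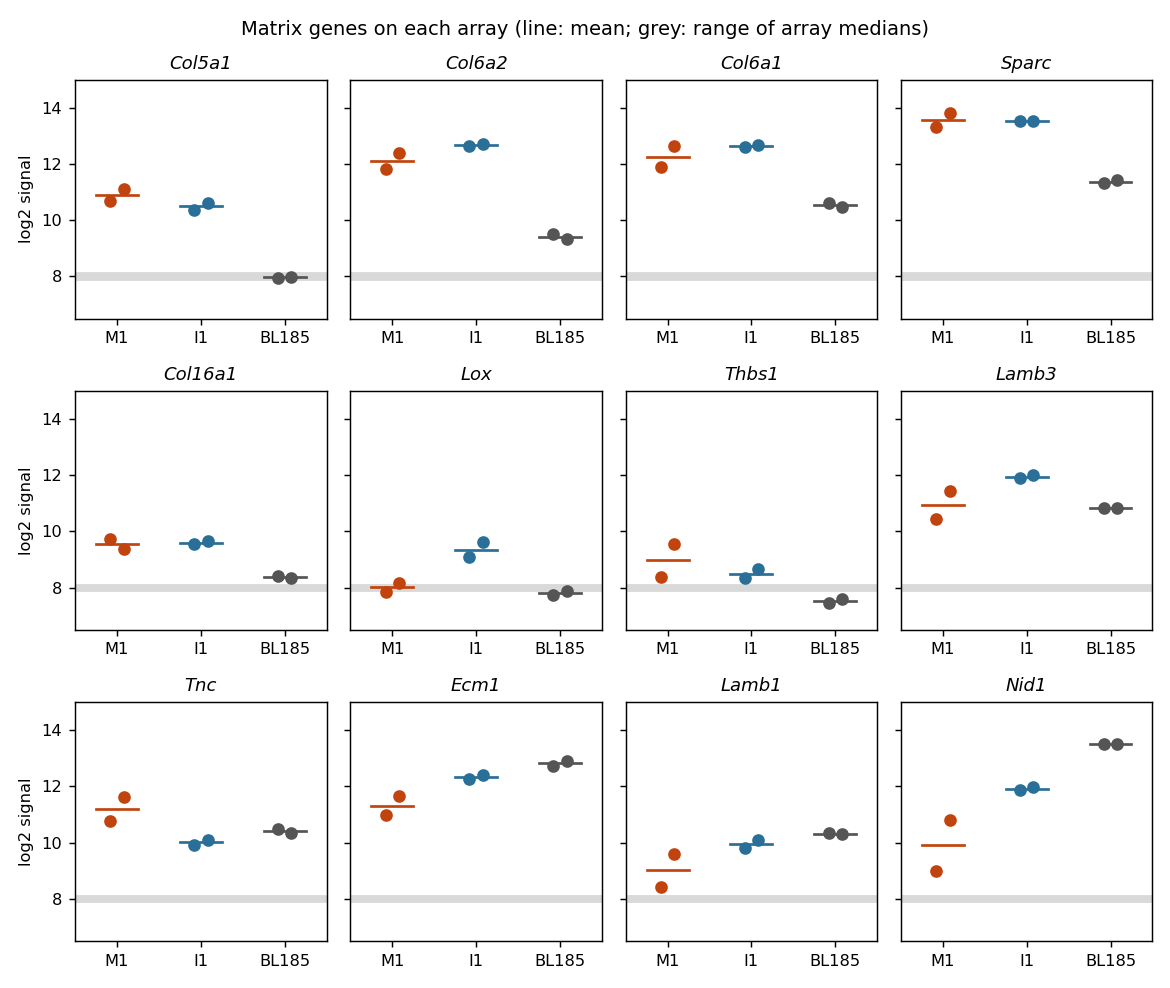
The log2 RMA signal of leading matrix genes on each of the 6 arrays, with M1 and I1 left of BL185, points for arrays, short lines for line means and a grey band for the range of array medians. Col5a1 lies between 10.38 and 11.12 on the M1 and I1 arrays and at 7.96 and 7.97 on the BL185 arrays, and Nid1 lies lowest on the M1 arrays.

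The list as a whole shifted little. The median change over the 43 genes was 0.17 in M1 and 0.23 in I1, against 0.07 and 0.06 over all genes. Positive changes were found for 31 members in M1 and 30 in I1, against 55.5% and 56.6% of all genes. Arrays of M1 and BL185 did not overlap for 15 genes that were higher and 4 that were lower, 34.9% and 9.30% of the 43, against 26.2% and 25.7% of all genes. Arrays of I1 and BL185 did not overlap for 25 genes that were higher and 9 that were lower, 58.1% and 20.9%, against 42.6% and 33.5% of all genes. Leaving out M1 replicate 1 gave 11 members called higher and 4 lower in M1, against 11.7% and 12.3% of all genes, and 19 higher and 6 lower in I1, against 22.5% and 24.1% of all genes. Requiring a 2-fold change in that setting left 6 higher and 2 lower in M1, against 3.79% and 3.26% of all genes, and 7 higher and 1 lower in I1, against 2.45% and 5.82% of all genes. The sign of the M1 change turned for 14 of the 43 members in that setting, against 27.6% of all genes, and among them Col18a1 and Lama3 were called.

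**Figure D2:**
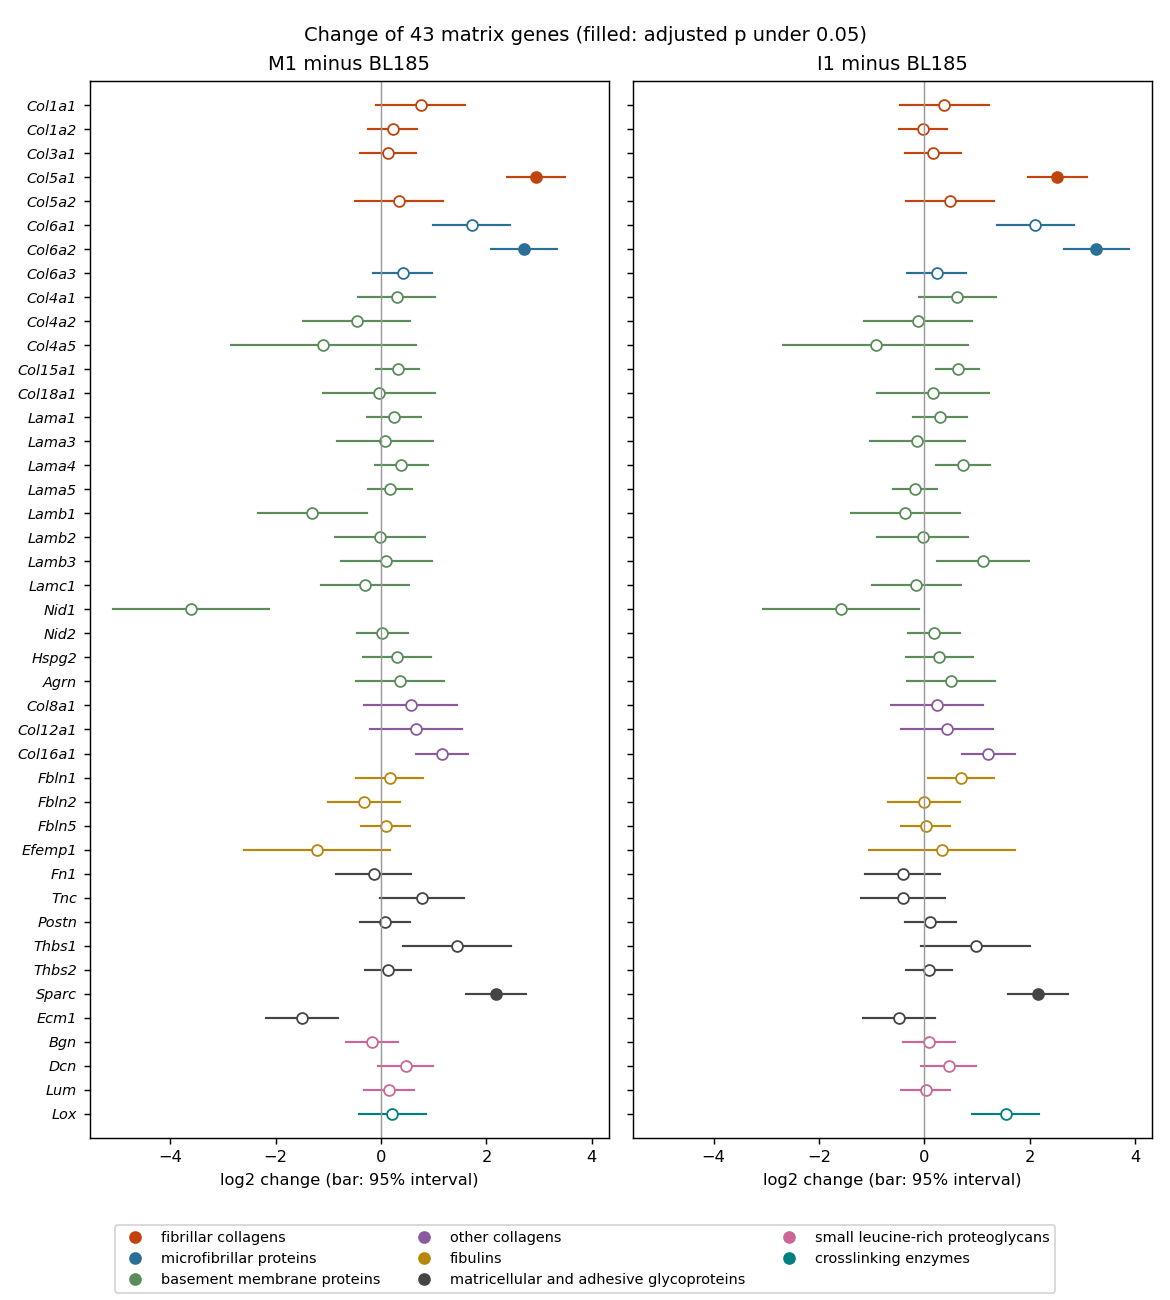
Log2 changes of the 43 matrix genes grouped by role, M1 minus BL185 and I1 minus BL185, with 95% confidence intervals of the fit as bars, colours for role groups and filled points for called genes. Col5a1, Col6a2 and Sparc are the called genes in both comparisons, and Nid1 has the lowest change in each.

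Among the fibrillar collagens, collagen V alpha 1 stood apart from the chains of collagens I and III. Col5a1 read 10.69 and 11.12 in M1 and 10.38 and 10.61 in I1, against 7.96 and 7.97 in BL185. All 4 arrays of the selected lines were above both BL185 arrays, which lay near the array median. Its change was 2.94 ± 0.22 in M1 (adjusted p = 0.0168) and 2.53 ± 0.22 in I1 (adjusted p = 0.0351). The BL185 signal of the probe set used cannot be told from background. The changes were 3.16 and 2.53 without M1 replicate 1, both called. Other Col5a1 probe sets gave smaller differences, 1.30 and 0.74 in M1 and 1.40 and 0.66 in I1. None of these was called in the fit of every probe set. In BL185 they read 8.62 and 8.67, and 8.09 and 8.15, above the array medians. The probe set used was the dimmest of the Col5a1 probe sets in BL185. Its mean over all arrays was the highest only through its M1 and I1 values. With the mean of the probe sets Col5a1 was at 1.66 in M1 (adjusted p = 0.0322) and at 1.53 in I1 (adjusted p = 0.0565), not called there. Col5a2, which encodes the partner chain of collagen V, read 8.46 and 7.56 in M1 and 8.12 and 8.18 in I1, against 7.55 and 7.79 in BL185, and its M1 and BL185 arrays overlapped. The collagen I genes Col1a1 and Col1a2 and the collagen III gene Col3a1 read 6.93 to 8.41 in M1. They read 7.17 to 8.17 in I1 and 6.98 to 8.33 in BL185. Their changes, 0.13 to 0.75 in M1 and −0.02 to 0.38 in I1, did not pass the test, and the interval for Col1a1 in M1 ran from −0.09 to 1.59. Col1a1 and Col5a2 were called higher in I1 without M1 replicate 1, on the probe sets used. Their BL185 signal on these lay below the array medians. Other probe sets gave 0.03 for Col1a1 and 0.005 for Col5a2 in I1.

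Of the 3 collagen VI chains measured, Col6a2 rose in both selected lines. Col6a2 read 11.84 and 12.41 in M1 and 12.63 and 12.72 in I1, against 9.50 and 9.32 in BL185. No array of a selected line came near the BL185 arrays, and the rise was 2.71 ± 0.24 in M1 (6.56-fold, adjusted p = 0.0235) and 3.26 ± 0.24 in I1 (9.58-fold, adjusted p = 0.0287). A second Col6a2 probe set also passed, at 2.13 in M1 (adjusted p = 0.0278) and 2.48 in I1 (adjusted p = 0.0296). With median centring, or with the replicate number as a block, Col6a2 was called in neither line. Col6a1, for the alpha 1 chain that assembles with alpha 2, read 11.88 and 12.64 in M1 and 12.60 and 12.69 in I1, against 10.61 and 10.46 in BL185. These arrays did not overlap either, but the changes of 1.72 ± 0.29 and 2.11 ± 0.29 had adjusted p-values of 0.0784 in M1 and 0.0720 in I1. Col6a1 was called without M1 replicate 1, at 2.10 in M1 and 2.11 in I1. Col6a3, for the longer alpha 3 chain, read 8.15 and 7.68 in M1 and 7.80 and 7.67 in I1, against 7.44 and 7.57 in BL185, near the array median throughout. Its changes, 0.42 in M1 and 0.23 in I1, did not pass the test, and their intervals reached up to 0.98 and 0.79. Col6a2 and Col6a1 are adjacent genes on chromosome 10 in the GRCm38.p6 annotation.

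The start regions of the genes with the largest changes are printed so that their sequence can be set beside the values: Col5a1, Col6a1, Col6a2 and Sparc, which were highest in the selected lines against BL185, and Nid1, which was lowest. Each is the RefSeq GRCm38.p6 window from 250 bases before to 50 after the annotated start, 5′ to 3′ on the gene's strand, with matches of the searched motifs in capitals. The windows are chr2:27886175-27886474 (plus strand) for Col5a1, chr10:76725995-76726294 (minus strand) for Col6a1 and chr10:76623355-76623654 (minus strand, the first of 2 annotated windows) for Col6a2. Those of Sparc and Nid1 are chr11:55420031-55420330 (minus strand) and chr13:13437352-13437651 (plus strand).
Col5a1: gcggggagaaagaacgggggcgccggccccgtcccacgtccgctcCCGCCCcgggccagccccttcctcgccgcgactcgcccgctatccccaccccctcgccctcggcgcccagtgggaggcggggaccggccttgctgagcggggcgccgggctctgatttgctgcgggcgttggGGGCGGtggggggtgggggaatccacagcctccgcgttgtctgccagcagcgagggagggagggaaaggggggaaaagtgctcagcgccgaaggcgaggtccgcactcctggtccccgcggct
Col6a1: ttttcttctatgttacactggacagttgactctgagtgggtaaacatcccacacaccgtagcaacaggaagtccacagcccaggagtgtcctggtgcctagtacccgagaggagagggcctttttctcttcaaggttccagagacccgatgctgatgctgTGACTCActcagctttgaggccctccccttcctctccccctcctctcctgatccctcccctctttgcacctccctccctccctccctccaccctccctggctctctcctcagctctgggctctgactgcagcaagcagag
Col6a2: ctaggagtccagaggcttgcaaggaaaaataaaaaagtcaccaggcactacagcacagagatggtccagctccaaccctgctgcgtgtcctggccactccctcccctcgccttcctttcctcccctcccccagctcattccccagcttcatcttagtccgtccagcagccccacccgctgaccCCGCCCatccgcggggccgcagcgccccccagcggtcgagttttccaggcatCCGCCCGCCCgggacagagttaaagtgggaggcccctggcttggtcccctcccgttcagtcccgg
Sparc: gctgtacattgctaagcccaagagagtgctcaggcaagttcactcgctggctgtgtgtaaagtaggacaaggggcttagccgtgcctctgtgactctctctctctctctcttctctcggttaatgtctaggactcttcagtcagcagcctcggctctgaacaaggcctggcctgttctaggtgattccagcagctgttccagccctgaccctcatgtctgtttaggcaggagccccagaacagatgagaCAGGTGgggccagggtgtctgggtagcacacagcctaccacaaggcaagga
Nid1: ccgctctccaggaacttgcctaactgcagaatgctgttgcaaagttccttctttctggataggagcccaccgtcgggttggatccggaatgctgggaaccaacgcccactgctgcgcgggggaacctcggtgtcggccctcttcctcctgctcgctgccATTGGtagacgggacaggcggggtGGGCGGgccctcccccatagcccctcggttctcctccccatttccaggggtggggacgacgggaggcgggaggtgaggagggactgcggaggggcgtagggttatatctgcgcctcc

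The motifs were searched on both strands, and no 2 different motifs overlapped in the printed windows. The Col5a1 window held 2 GC boxes (GGGCGG, the letters bound by SP1-type factors), and the Col6a2 window held 3, of which 2 overlap each other. The Col6a1 window held 1 AP-1 site (TGANTCA, bound by FOS and JUN dimers). The Sparc window held 1 copy of CACCTG, the E-box bound by SNAI and ZEB repressors, and the Nid1 window held 1 CCAAT box and 1 GC box. No motif was present in all 4 of the windows of Col5a1, Col6a1, Col6a2 and Sparc. Windows were found for 30 of the 43 genes, 38 windows in all. GC boxes were present in 63.2% of these windows, against 35.7% of all 32851 windows in the table. The shares were 7.90% against 7.81% for the AP-1 site, 28.9% against 37.4% for CCAAT and 15.8% against 13.6% for TATAAA. They were 13.2% against 20.2% for CACCTG and 5.26% against 7.15% for CACGTG, the E-box of MYC factors. A match describes letters in the window and is not a measured binding site.

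The 17 basement membrane genes had differences in both directions. Their median change was 0.07 in M1 and 0.16 in I1, and none was called in either line. Nid1, for nidogen 1, which links laminin to collagen IV, read 8.99 and 10.81 in M1 and 11.87 and 11.97 in I1, against 13.51 and 13.49 in BL185. Every M1 array was below every I1 array, and every I1 array was below both BL185 arrays. The change was −3.60 ± 0.58 in M1 (adjusted p = 0.0743) and −1.58 ± 0.58 in I1 (adjusted p = 0.393), with M1 replicate 1 the lowest array. Once M1 replicate 1 was left out, they were −2.69 in M1 (adjusted p = 6.5e-09) and −1.58 in I1 (adjusted p = 1.02e-07). A second Nid1 probe set passed the test in M1 at −1.96 (adjusted p = 0.0475) and had −1.72 in I1 (adjusted p = 0.0675), and the dimmest one gave −0.42 in M1 and −0.44 in I1. Nid2, for the related nidogen 2, stayed between 6.89 and 7.29 on all 6 arrays, below the array medians.

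Laminins are cross-shaped trimers of an alpha, a beta and a gamma chain, and their genes differed chain by chain. Lamb1, for the widely expressed beta 1 chain, read 8.41 and 9.60 in M1 and 9.82 and 10.09 in I1, against 10.35 and 10.29 in BL185. Both selected lines were below BL185 without overlap, at −1.31 ± 0.41 in M1 (adjusted p = 0.247) and −0.36 ± 0.41 in I1 (adjusted p = 0.754). Lamb3, for the beta 3 chain of an epithelial laminin, read 10.44 and 11.43 in M1 and 11.89 and 12.00 in I1, against 10.82 and 10.85 in BL185. The I1 arrays were above the rest while the M1 arrays lay on either side of BL185, and the changes were 0.10 in M1 and 1.11 ± 0.34 in I1 (adjusted p = 0.298). In the setting without M1 replicate 1, Lamb1 was called lower, at −0.71 in M1 and −0.36 in I1, and Lamb3 higher, at 0.59 in M1 and 1.11 in I1. Lama5, the main alpha chain of many adult basement membranes, read 11.41 and 11.33 in M1 and 10.96 and 11.07 in I1, against 11.23 and 11.17 in BL185. Lama4, a chain of vascular and mesenchymal laminins, read 7.87 and 7.58 in M1 and 8.21 and 7.94 in I1, against 7.36 and 7.33 in BL185. Its changes were 0.38 in M1 and 0.73 in I1, while its second probe set gave 0.47 in M1 and 0.02 in I1. Lama1 and Lama3, for the alpha 1 and alpha 3 chains, read 6.97 to 8.18 in M1, 7.16 to 7.46 in I1 and 6.84 to 7.64 in BL185. Calls without M1 replicate 1 included Lama3 lower in M1 (−0.44, against 0.07 with both arrays) and Lama1 and Lama4 higher in I1 (0.30 and 0.73). Lamc1, for the common gamma 1 chain, and Lamb2, for the beta 2 chain, changed by −0.30 and −0.03 in M1 and by −0.15 and −0.03 in I1, with their M1 arrays on either side of BL185. The M1 values turned to 0.17 for Lamc1 and 0.43 for Lamb2 without M1 replicate 1, neither called.

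Collagen IV forms the network of basement membranes, and its alpha 1 and alpha 2 genes sit head to head on chromosome 8. Col4a1 read 12.46 and 13.23 in M1 and 13.13 and 13.21 in I1, against 12.48 and 12.61 in BL185. Col4a2 read 11.20 and 12.37 in M1 and 12.00 and 12.26 in I1, against 12.19 and 12.31 in BL185. In I1 the arrays of Col4a1 were above BL185 and those of Col4a2 overlapped with it, with changes of 0.63 ± 0.29 and −0.12 ± 0.40. In M1 both genes had arrays on either side of a BL185 array, at 0.30 and −0.46, and none of these changes passed the test. The M1 values were 0.68 for Col4a1 and 0.12 for Col4a2 without M1 replicate 1. Col4a1 was called higher in both selected lines without M1 replicate 1, and Col4a2 in neither. The RefSeq windows of the pair run in opposite directions and share the 78 bases of chr8:11312777-11312854. These bases are shown on the Col4a2 (plus) strand, with a GC box in capitals.
Col4a1 and Col4a2 shared: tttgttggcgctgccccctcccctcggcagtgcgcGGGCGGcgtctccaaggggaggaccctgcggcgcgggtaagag

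Col4a5, for a collagen IV chain best known from the kidney filter, read 7.67 and 9.84 in M1 and 8.79 and 9.05 in I1, against 9.90 and 9.79 in BL185. The M1 arrays differed more here than for any other member (SD 1.53), and the changes of −1.09 and −0.93 did not pass. Col15a1 and Col18a1 encode the multiplexin collagens that release endostatin-type fragments. Col15a1 read 8.74 and 8.76 in M1 and 9.06 and 9.07 in I1, against 8.42 and 8.45 in BL185, and Col18a1 read 11.36 and 12.60 in M1 and 12.06 and 12.30 in I1, against 11.99 and 12.05 in BL185. For Col15a1 the lines did not overlap, but its changes of 0.32 in M1 and 0.63 in I1 (adjusted p = 0.210) did not pass. Hspg2, for the heparan sulfate proteoglycan perlecan, changed by 0.31 in M1 and 0.28 in I1, with arrays that overlapped BL185 in both lines. Its second probe set gave 1.07 in M1 (adjusted p = 0.0869) and 0.74 in I1. Agrn, for the proteoglycan agrin, read 11.03 and 11.96 in M1 and 11.54 and 11.74 in I1, against 11.14 and 11.13 in BL185. With M1 replicate 1 left out, Agrn was called higher in both lines, Col18a1 higher in M1 (0.58, against −0.04 with both arrays), Col15a1 higher in I1 and Col4a5 lower in I1, while the M1 value of Col4a5 was −0.01.

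**Figure D3:**
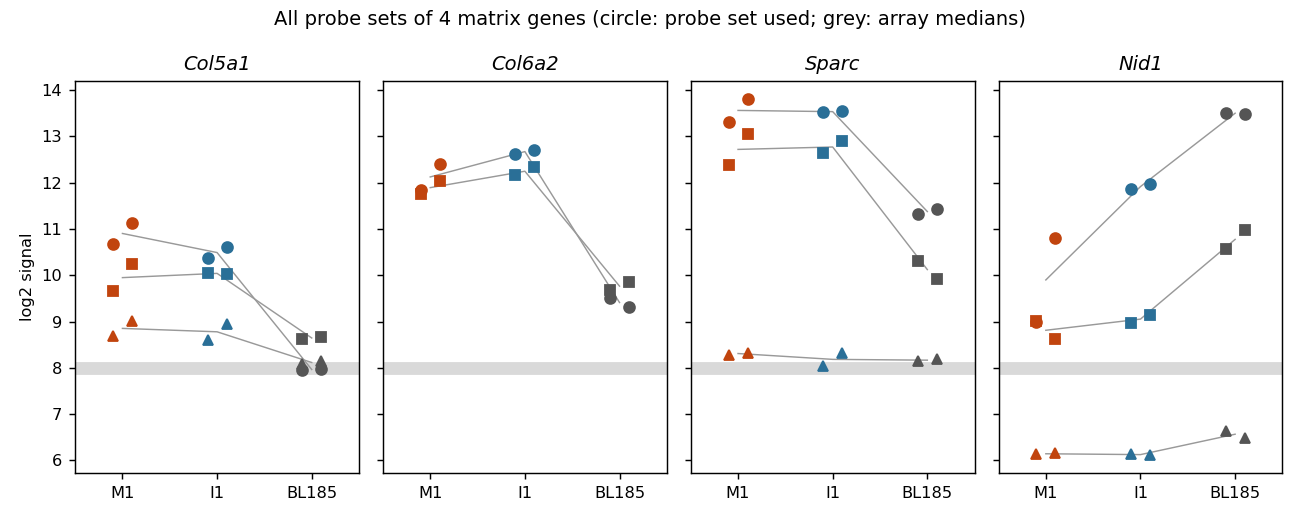
The log2 signal of every probe set of Col5a1, Col6a2, Sparc and Nid1 on each array (points; circles for the probe set used, grey lines through line means, grey band for the range of array medians), with M1 and I1 left of BL185. Both Col6a2 probe sets lie above BL185 in M1 and I1, and the dimmest Sparc probe set lies near the array medians in every line.

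Other collagens link or decorate fibrils. Col16a1, for a fibril-associated collagen, read 9.72 and 9.37 in M1 and 9.55 and 9.66 in I1, against 8.42 and 8.35 in BL185. Both selected lines were above BL185 without overlap, and their changes were close in size, 1.16 ± 0.20 in M1 (adjusted p = 0.0822) and 1.22 ± 0.20 in I1 (adjusted p = 0.0990). Leaving out M1 replicate 1 gave 0.98 (adjusted p = 0.000105) in M1 and 1.22 in I1, both called. Col12a1, another fibril-associated collagen, read 9.72 and 8.75 in M1 and 8.93 and 9.06 in I1, against 8.48 and 8.67 in BL185. Its other probe sets, all below the array medians, gave 0.01, −0.02 and 0.10 in I1. Col8a1, for a short-chain network collagen, read 8.51 and 7.52 in M1 and 7.71 and 7.67 in I1, against 7.36 and 7.55 in BL185. For both genes M1 replicate 1 was the highest array, and neither was called. Col12a1 was called higher in I1 without that array (0.42, adjusted p = 0.0102), and the M1 values were then 0.17 for Col12a1 and 0.07 for Col8a1.

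Fibulins bind elastic fibres and basement membranes, and none of the 4 measured was called. Fbln1 read 9.25 and 8.66 in M1 and 9.59 and 9.40 in I1, against 8.79 and 8.80 in BL185, with 0.16 in M1 and 0.70 ± 0.25 in I1 (adjusted p = 0.376). Only the I1 arrays of Fbln1 were clear of BL185 on the probe set used. Other Fbln1 probe sets gave 0.002 and 0.21 in I1 and −0.10 and 0.04 in M1. Fbln2 read 12.62 and 13.28 in M1 and 13.19 and 13.35 in I1, against 13.17 and 13.38 in BL185, and all lines overlapped. Efemp1, for fibulin 3, read 8.14 and 9.82 in M1 and 10.61 and 10.46 in I1, against 10.31 and 10.08 in BL185. Its M1 arrays were below BL185 and its I1 arrays above, at −1.22 ± 0.55 and 0.34 ± 0.55. Fbln5, which serves elastic fibre assembly, stayed between 7.87 and 8.13 on all arrays. Leaving out M1 replicate 1 called Fbln1 (0.70, adjusted p = 0.000247) and Efemp1 (0.34, adjusted p = 0.0373) higher in I1. It moved the M1 values to −0.14 for Fbln1 and −0.38 for Efemp1, neither called.

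Among the matricellular and adhesive glycoproteins, Sparc rose in both lines. Sparc, also called osteonectin, read 13.31 and 13.81 in M1 and 13.52 and 13.55 in I1, against 11.32 and 11.44 in BL185. The arrays of the selected lines lay together above BL185, and the rise was 2.18 ± 0.22 in M1 (4.54-fold, adjusted p = 0.0292) and 2.16 ± 0.22 in I1 (4.46-fold, adjusted p = 0.0388). The values without M1 replicate 1 were 2.43 and 2.16, both called. A second probe set also passed at 2.60 in M1 (adjusted p = 0.0433) and 2.65 in I1 (adjusted p = 0.0497), while a dim one gave 0.14 and 0.02. Ecm1, for a secreted glycoprotein that binds perlecan and fibulins, read 10.97 and 11.65 in M1 and 12.26 and 12.41 in I1, against 12.73 and 12.90 in BL185. The lines were ordered M1, I1, BL185 without overlap, and the changes were −1.51 ± 0.27 in M1 (adjusted p = 0.0914) and −0.48 ± 0.27 in I1 (adjusted p = 0.607). Ecm1 was, without M1 replicate 1, called lower in both lines, at −1.17 in M1 and −0.48 in I1.

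Thbs1, for the anti-angiogenic thrombospondin 1, read 8.38 and 9.55 in M1 and 8.35 and 8.64 in I1, against 7.47 and 7.58 in BL185. All selected arrays were above BL185, with 1.44 ± 0.41 in M1 (adjusted p = 0.215) and 0.97 ± 0.41 in I1 (adjusted p = 0.457). The BL185 signal of Thbs1 cannot be told from background. Thbs1 was called in both without M1 replicate 1, at 2.03 and 0.97. Tnc, for tenascin C, which loosens cell adhesion, read 10.76 and 11.63 in M1 and 9.93 and 10.08 in I1, against 10.48 and 10.35 in BL185. M1 was above BL185 and I1 below it, at 0.78 ± 0.32 and −0.41 ± 0.32, neither called with all 6 arrays. Tnc was called without M1 replicate 1, higher in M1 at 1.21 (adjusted p = 1.94e-05) and lower in I1 at −0.41 (adjusted p = 0.0108). Fn1, for fibronectin, the main cell-adhesive glycoprotein of the matrix, read 13.34 and 13.98 in M1 and 13.19 and 13.57 in I1, against 13.72 and 13.87 in BL185. Its change of −0.14 in M1 had an interval from −0.85 to 0.58, and that of −0.41 in I1 one from −1.13 to 0.30. With M1 replicate 1 left out, the M1 value turned to 0.18, not called, and Fn1 was called lower in I1 (adjusted p = 0.0226). Postn (periostin) and Thbs2 (thrombospondin 2) lay near or below the array medians, and their changes were 0.07 and 0.14 in M1 and 0.11 and 0.09 in I1.

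The small leucine-rich proteoglycans, which bind collagen fibrils, and the crosslinker Lox gave no call. Dcn, for decorin, read 8.73 and 8.31 in M1 and 8.52 and 8.51 in I1, against 7.99 and 8.12 in BL185, without overlap, and changed by 0.46 ± 0.21 in each line (adjusted p = 0.372 in M1 and 0.503 in I1). Bgn, for biglycan, changed by −0.17 in M1 and 0.08 in I1, and Lum, for lumican, by 0.15 and 0.02. Lox, for lysyl oxidase, the enzyme that starts collagen and elastin crosslinks, read 7.86 and 8.18 in M1 and 9.08 and 9.61 in I1, against 7.72 and 7.88 in BL185. Only I1 was clear of BL185, at 1.54 ± 0.25 (adjusted p = 0.0996), against a BL185 signal that cannot be told from background. M1 differed by 0.21 ± 0.25 with overlapping arrays. Other Lox probe sets gave 0.44 and 0.11 in I1 and 0.11 and 0.30 in M1, none called in the fit of every probe set. Lox was called higher in I1 without M1 replicate 1 (adjusted p = 2.23e-06), as was Dcn (adjusted p = 0.00458), whose M1 value was then 0.26 and not called.

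M1 and I1 differed from each other in several matrix genes, none of which passed over all genes. In I1 minus M1, 0 members were called (0% of all genes). At an unadjusted p under 0.05, 5 were higher and 1 lower, against 1.83% and 0.418% of all genes. The arrays did not overlap for 11 genes higher in I1 and 4 lower, against 8.13% and 7.96% of all genes. Among these, Nid1 differed by 2.02 ± 0.58, Efemp1 by 1.56 ± 0.55, Lox by 1.33 ± 0.25, Tnc by −1.19 ± 0.32, Ecm1 by 1.03 ± 0.27 and Lamb3 by 1.01 ± 0.34. For Lox, I1 read 9.08 and 9.61 and M1 read 7.86 and 8.18. Other probe sets gave 0.33 and −0.20 for Lox, 0.24 and −0.02 for Nid1 and −0.88 for Tnc. Sparc differed by −0.03 ± 0.22 and Col16a1 by 0.06 ± 0.20, and their intervals ran from −0.59 to 0.54 and from −0.44 to 0.56. With M1 replicate 1 left out, 8 members were called higher and 6 lower, against 7.20% and 13.4% of all genes. The higher ones were Col5a2, Ecm1, Efemp1, Fbln1, Lama4, Lamb3, Lox and Nid1, and the lower ones Col4a5, Col5a1, Fn1, Lamb2, Thbs1 and Tnc. Several values were much smaller in that setting: 1.10 for Nid1, 0.72 for Efemp1, 0.69 for Ecm1 and 0.52 for Lamb3, while Lox had 1.17 and Tnc −1.62.

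Genes that act on collagen before and after secretion include its chaperone, hydroxylases and propeptide-cleaving proteins. Of 23 measured collagen processing genes, 1 was called higher in M1 and 1 in I1, against 0.275% and 0.192% of all genes. In each line 0 were called lower, against 0.605% and 0.319% of all genes. Serpinh1, the collagen chaperone HSP47, read 10.20 and 10.25 in M1 and 9.76 and 9.49 in I1, against 8.46 and 8.76 in BL185, and rose by 1.61 ± 0.20 in M1 (adjusted p = 0.0466). Its change in I1 was 1.01 ± 0.20 (adjusted p = 0.144). Pcolce, which enhances the removal of the procollagen C-propeptide, read 12.07 and 12.65 in M1 and 12.66 and 12.78 in I1, against 10.57 and 10.36 in BL185. It rose by 2.26 ± 0.25 in I1 (adjusted p = 0.0461), and in M1 its change was 1.89 ± 0.25 (adjusted p = 0.0508). Bmp1, the protease that Pcolce helps, read 11.47 and 11.72 in M1 and 11.70 and 11.72 in I1, against 10.29 on each BL185 array, at 1.30 in M1 (adjusted p = 0.0553) and 1.42 in I1 (adjusted p = 0.0595). P4ha1, for a prolyl hydroxylase subunit, had −1.73 in M1 (adjusted p = 0.202) and −0.76 in I1 (adjusted p = 0.637). In the setting without M1 replicate 1, Serpinh1, Pcolce and Bmp1 were called higher and P4ha1 lower in both lines. Of 28 matrix receptor genes and 45 other matrix genes, 0 were called in either line. At an unadjusted p under 0.05, 1 receptor gene was higher and 1 lower in M1, and 4 were higher and 0 lower in I1. Of the other matrix genes, 3 were higher and 0 lower in each line. Over all genes, 3.92% were higher and 11.5% lower in M1, and 4.18% and 7.47% in I1. The median changes were −0.19 in M1 and 0.13 in I1 for the receptors, and 0.40 and 0.27 for the other matrix genes, against 0.07 and 0.06 over all genes. Of the other matrix genes, 4 were called higher (Col7a1, Vcan, Thbs3 and Ltbp1) and 2 lower (Matn2 and Ltbp4) in M1 without M1 replicate 1, and 19 higher and 0 lower in I1, led by Col5a3 at 1.37, which encodes another collagen V chain. In the same setting 4 receptor genes were called higher and 2 lower in M1 and 9 higher and 3 lower in I1, with the integrin gene Itgb3 at 1.67 and 1.22. Over all genes that setting called 11.7% higher and 12.3% lower in M1, and 22.5% and 24.1% in I1.

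**Figure D4:**
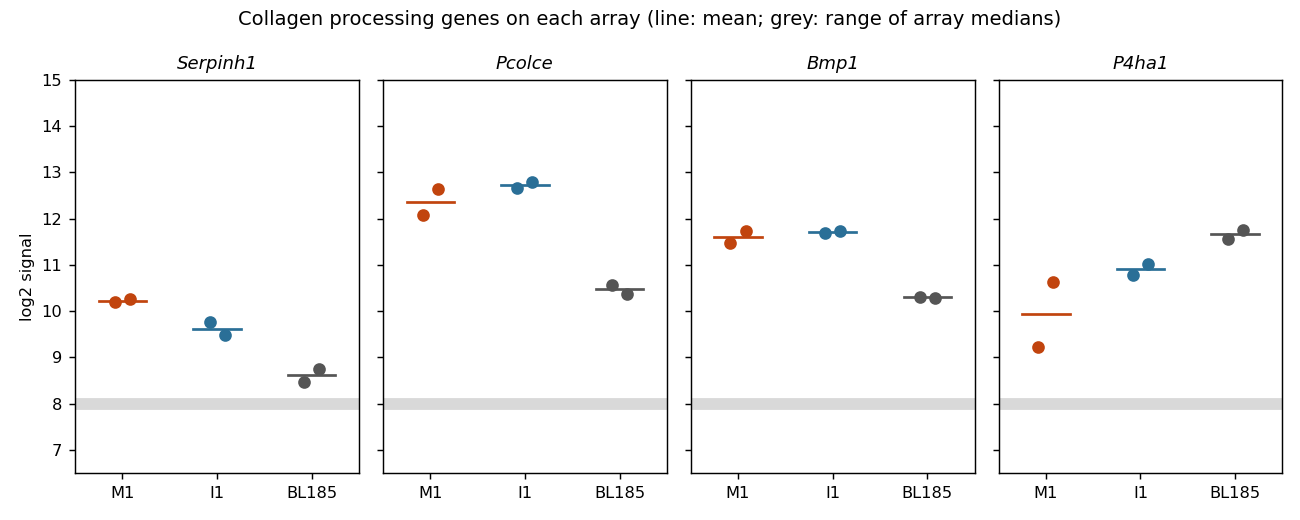
The log2 signal of 4 collagen processing genes on each array (points), with short lines for line means, a grey band for the range of array medians, and M1 and I1 left of BL185. Pcolce and Bmp1 lie above BL185 on all 4 arrays of the selected lines, and P4ha1 lies below it.

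Markers of cells that make much matrix in liver were measured beside these genes. Of 10 stellate cell and fibroblast markers, 0 were called in either line, and 0 passed an unadjusted p under 0.05. Their summed linear signal was 4158 and 2756 in M1 and 3242 and 3398 in I1, against 2559 and 2639 in BL185, and was higher on every array of the selected lines. Without M1 replicate 1, 6 of the 10 were called higher and 0 lower in I1, against 22.5% and 24.1% of all genes, and 0 in M1. Acta2 and Des had the highest signal, and Thy1, Lrat, Reln and Rgs5 stayed below the array medians on all 6 arrays. Endothelial markers summed to 2586 and 2151 in M1 and 2215 and 2219 in I1, against 1851 and 1953 in BL185. Leukocyte markers summed to 5519 and 5768 in M1 and 6538 and 7193 in I1, against 6708 and 6558 in BL185. Of these 10, 2 were called lower in M1, against 0.605% of all genes. They were the macrophage marker Cd68, by 3.21 (adjusted p = 0.0147), and the pan-leukocyte Cd53, by 1.66 (adjusted p = 0.0469). In I1 Cd68 fell by 3.05 (adjusted p = 0.0262), 1 of 10 against 0.319% of all genes. Most of the list went the other way: 7 of the 10 changes were positive in each line, against 55.5% and 56.6% of all genes. None of these was called with all 6 arrays. The part of these differences in the matrix values was not tested. As for the labelled cell type, Krt8, Krt18, Epcam and the hepatocyte factor Hnf4a were well above the array medians in all 3 lines. Alb and, outside M1 replicate 1, Afp lay near or below them. In BL185 the markers Apoa1, Ahsg, Tat, Cyp2e1, Gpc3 and Dlk1 also lay near or below the array medians. Cps1 and Igf2 lay a little above them there, and Ttr and Fgb higher. Of 9 hepatocyte markers measured, 1 was called lower in M1, against 0.605% of all genes. This was the fibrinogen gene Fgb, at −1.78 (adjusted p = 0.0469), with −1.93 in I1 (adjusted p = 0.0501). The changes of 7 of the 9 were positive in each line, against 55.5% and 56.6% of all genes. None of these 7 was called with all 6 arrays. A fit with the 18S value as a covariate was chosen after seeing the data. In it Col5a1, Col6a2 and Sparc changed by 3.26, 3.16 and 2.58 in M1 and by 2.80, 3.65 and 2.50 in I1, all called. The 18S slope came from differences within lines, mostly between the M1 arrays at 12.50 and 10.68. That fit therefore cannot tell whether RNA composition contributed to the changes, which was not tested.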

How the data were processed

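RNA of the 3 lines was extracted with Trizol and labelled with a 3′ IVT kit for Affymetrix mouse arrays, per the labels' protocols. For every array the authors deposited a log2 value of each probe set, made with RMA and affy per the submitters' processing notes (no version or setting is given in the sources used here), and the log2 scale was inferred from the range. Probe sets were named by the platform annotation (34945 of 45101 name 1 gene), updated through RefSeq GRCm38.p6, and each gene was taken from its probe set with the highest mean. limma 3.58.1 in R 4.3.3 fitted 1 mean per line to the 6 arrays, and p-values were Benjamini-Hochberg adjusted over 18193 genes. The method was tested on simulated data. Its pass mark used the BL185 spread between arrays (0.10), below that of M1 (0.65). Groups and replicate numbers came from the sample titles. The members and lists were chosen with earlier results of these data known. Every member was named or counted, with full values for called members, the 5 largest non-overlapping changes per comparison and the brightest of each role. Alternatives varied the scaling, filter, probe set rule, threshold, spread estimate, block and arrays left out. The number of unused sample columns was 0. With 2 arrays a line, precision is limited by their number.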

Additional observations from a re-analysis of the deposited data

Results flagged for a closer look

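For 3 matrix genes both arrays of one selected line lay above both BL185 arrays while both arrays of the other lay below them, 6.98% of the 43 against 0.951% of all genes. None of these changes from BL185 passed the test with all 6 arrays, and the genes were picked for this pattern on the same arrays, so the p-values below are descriptive. Efemp1, for fibulin 3, was above BL185 in I1 and below it in M1, and I1 minus M1 was 1.56 (unadjusted p = 0.0340 in limma's moderated test, adjusted p = 1.00). Without M1 replicate 1 the difference was 0.72 (adjusted p = 0.00519). Tnc, for tenascin C, was below BL185 in I1 and above it in M1, at −1.19 (unadjusted p = 0.0119 in limma's moderated test, adjusted p = 1.00), and at −1.62 without M1 replicate 1 (adjusted p = 1.02e-05). Lama5, for the laminin alpha 5 chain, was also below BL185 in I1 and above it in M1, at −0.35 (unadjusted p = 0.0807 in limma's moderated test, adjusted p = 1.00), and at −0.32 without that array (adjusted p = 0.121). The other Lama5 probe sets did not show this pattern. On the brighter of them, M1 read 10.17 and 10.37 against 10.24 and 10.18 in BL185, with I1 below BL185. On the dimmer, which lay below the array medians, I1 was above BL185, by 0.37. None of the 3 differences between the selected lines passed over all genes with all 6 arrays.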

How the results depend on the processing

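Counts depended on how the spread was estimated, while median changes of the members stayed between 0.05 and 0.25 in M1 and between 0.14 and 0.32 in I1. Leaving out 1 array at a time gave 0 to 12879 calls over all genes in M1 minus BL185, with 0 to 18 members higher and 0 to 13 lower. In I1 minus BL185 it gave 0 to 8481 calls, with 0 to 19 members higher and 0 to 6 lower, and in I1 minus M1 0 to 10365 calls, with 0 to 17 higher and 0 to 7 lower. Calls were 0 without either BL185 or either I1 array. Quantile scaling gave 1176 calls with 6 members higher and 2 lower in M1, 981 with 9 higher in I1, and 6 in I1 minus M1. Cyclic loess gave 1831 with 9 and 3, 1544 with 10 higher, and 51 with 1 lower. Median centring gave 57 with 1 member higher (Col5a1) in M1 and 23 with 0 in I1. It moved the median of all genes in M1 to −0.06, against 0.07. Higher calls made up 31.2% in M1 and 37.6% in I1, against 53.8% and 62.0% under quantile scaling, 46.3% and 49.5% under loess and 8.77% and 8.70% under median centring. Array weights gave 312 calls with 1 member lower in M1, 8551 with 18 higher and 6 lower in I1, and 2 in I1 minus M1. The 18S covariate, chosen after seeing the data, gave 2446 with 11 and 3, 3963 with 13 and 1, and 534 with 6 and 1, with 67.7% and 69.6% of calls higher in M1 and I1. Arrays of the compared lines alone gave 0 calls and 0 members in M1, and 8481 with 19 and 6 in I1. Averaging a gene's probe sets gave 338 calls in M1 with 1 member lower, left 2 members higher in I1 and ended the Col5a1 call there (1.53, adjusted p = 0.0565), and a mean of at least 8 gave 1 member lower in M1 and 1 call in I1 minus M1. An adjusted p under 0.01 left 5 calls and 0 members in M1, and 3 and 0 in I1. Deviations of same-numbered arrays correlated at 0.37 for I1 with M1 and 0.16 for I1 with BL185. They correlated at −0.13 for M1 with BL185, so the numbers were not taken as pairs. A replicate block gave 38 calls with 1 member higher (Col5a1) in M1 and 1 with 0 in I1. Under median centring or the block, Col6a2 and Sparc lost their calls in both lines, and Col5a1 in I1. Crossing the BL185 numbers, chosen after seeing the data, gave 76 calls in M1 and 0 with 0 members in I1. Col5a1, Col6a2 and Sparc kept their direction under every alternative run in M1 and I1 against BL185.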
